A study of Macaca mulatta with 304 samples.

Results

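The genes described are 10 genes of class I antigen processing in rhesus macaques: TAP1, TAP2, TAPBP, PSMB8, PSMB9, PSMB10, NLRC5, B2M, ERAP1 and ERAP2. They were taken from the count table by symbol, whatever their values, and are 10 of its 21070 genes. All 10 passed the filter on low counts, which 13751 genes of the table passed. Whole blood RNA was sequenced from 28 healthy adult animals (14 females and 14 males) that received thoracic radiation as a single treatment. In the lower dose (LD) group, 6 males and 6 females received 9.8 Gy, and in the higher dose (HD) group 8 males and 8 females received 10.7 Gy. Of the samples, 280 were drawn after irradiation and 24 on Day -2, which serve as each animal's own control. A control sample was at hand for 12 LD and 12 HD animals. Early time points (Day 3 to 21) hold samples of all 28 animals. Medium time points, from past Day 21 up to Day 90, hold 95 samples of the same 28. Late time points, past Day 90, hold 53 samples of 16 animals. Irradiated animals were given tramadol or buprenorphine from Day 4 to Day 25, and dexamethasone when they breathed fast. Samples of Day 4 to Day 25 carry tramadol or buprenorphine as well as the radiation. Later samples may carry after-effects of these, and samples of any animal treated for fast breathing may carry dexamethasone. At late time points 43 of the 53 samples came from LD animals. In whole blood, fewer cells of a type and less RNA per cell cannot be told apart.

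Class I molecules show peptides from inside a cell to CD8 T cells and natural killer cells. The proteasome cuts proteins into peptides, TAP1 and TAP2 form the transporter that brings them into the endoplasmic reticulum, and tapasin, the product of TAPBP, holds empty class I molecules next to that transporter. ERAP1 and ERAP2 are aminopeptidases that trim the peptides there, and B2M is the light chain of the class I molecule. PSMB8, PSMB9 and PSMB10 are the catalytic subunits of the immunoproteasome, which replace PSMB5, PSMB6 and PSMB7. NLRC5 is the transactivator of class I genes, and interferons are known to raise many of these genes in leukocytes.

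The libraries held 2840219 to 23638161 counted reads, and the median library was larger in controls (11697186) than at late time points (6935207). Library names carry a number that falls into 3 ranges (low, high and the number 0), and what the number stands for is not given in the sources used here. The low range held 20 controls and 100 early samples, while the other 4 controls, all from HD animals, carried the number 0. Every medium and late sample carried a high number or the number 0. Animals B1501 and B1504 of the LD group had controls that stood apart: TAP1 was at 534 and 585 CPM (a gene's counts relative to the library size scaled by the upper quartile) and NLRC5 at 1326 and 989 CPM. Markers of other blood cells moved too. Of the marker genes tested, 8 of 8 B cell genes fell at early time points, beside 1.75% of all genes. Of the erythroid genes 9 of 9 rose, beside 5.79%. At late time points 8 of 8 B cell genes and 4 of 7 T cell genes fell, beside 18.5% of all genes. Of the neutrophil genes 7 of 7 rose, beside 14%. The summed B cell level ranged from 329 to 2491 CPM in the controls of the late comparison and from 125.4 to 503.7 CPM in late samples, and the summed neutrophil level from 1008 to 8877 CPM and from 4411 to 12750 CPM. No marker of these lists was at 0 in every sample, and the part of cell makeup in the results on the 10 genes was not tested.

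Of the 10 genes, 5 lie on chromosome 4 of the Mmul_10 assembly. TAPBP is at chr4:136191811-136205440, and PSMB9 (chr4:136666685-136673727), TAP1 (chr4:136672519-136680734), PSMB8 (chr4:136681298-136685276) and TAP2 (chr4:136687038-136698796) follow each other further along. ERAP1 (chr6:93592808-93640640) and ERAP2 (chr6:93710723-93771016) are neighbours on chromosome 6, B2M is at chr7:21220625-21227670, and NLRC5 (chr20:44236656-44329987) and PSMB10 (chr20:55152949-55155318) share chromosome 20. TAP1 and the curated PSMB9 transcript start 150 bases apart and run in opposite directions, and a longer predicted PSMB9 transcript overlaps TAP1. The use of strand in counting is not stated, so reads of PSMB9 and TAP1, of PSMB8 and TAP1 with LOC106997907, of B2M with PATL2, of NLRC5 with LOC100427747, of ERAP1 with CAST and LOC106998865, and of ERAP2 with LOC114678864 may not be fully told apart where the annotations overlap on opposite strands. TAPBP overlaps ZBTB22 on the same strand.

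The stretches upstream of TAPBP, PSMB10 and B2M are shown for reference, since these are the 3 of the 10 genes with a match to the sequence described next. The capitals mark every match to GAAANNGAA on either strand, a short form of the element that interferon regulatory factors bind, where N is any base. The PSMB10 stretch is the 250 bases before the annotated start (chr20:55155319-55155568, minus strand). The B2M stretch (chr7:21220530-21220559, plus strand) and the TAPBP stretch (chr4:136191781-136191810, plus strand) are 30 bases each, because the longer windows lie in exons annotated for PATL2 and ZBTB22.
PSMB10: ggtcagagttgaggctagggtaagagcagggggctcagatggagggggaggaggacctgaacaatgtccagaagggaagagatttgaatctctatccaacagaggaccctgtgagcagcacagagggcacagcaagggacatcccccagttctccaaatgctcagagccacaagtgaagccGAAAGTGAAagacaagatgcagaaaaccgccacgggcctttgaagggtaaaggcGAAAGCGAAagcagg
B2M: actctaaGAAAAGGAAACCGAAaacgggaa
TAPBP: gggtggggtagctttcggGAAAAGGAAtaa
In the 250 bases before the outermost start, GAAANNGAA was found in 3 of the 10 genes (TAPBP, PSMB10 and B2M) and in 6.87% of the 20787 protein coding genes of the assembly. In B2M and PSMB10 it occurred 2 times each, and the 2 matches of B2M overlap by 3 bases. TGACG, a core of the cyclic AMP response element, was found in TAP1, PSMB8, PSMB9 and B2M and in 19.8% of all, and CCAAT in TAP2, B2M and ERAP1 and in 31% of all. These are matches of letters in the windows read, and their use was not measured.

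In control blood, B2M was by far the most abundant of these RNAs. Its level ranged from 1459 to 8803 CPM over the 24 controls, with a median of 3559 CPM. Per kilobase of exon, the control medians were 2261 CPM for B2M, 104.1 for TAPBP, 98.5 for PSMB8, 76.9 for NLRC5, 70.6 for TAP1, 55.1 for PSMB10, 54.8 for PSMB9, 50.3 for TAP2, 17.1 for ERAP1 and 12.4 for ERAP2. The order of neighbours such as PSMB10, PSMB9 and TAP2 is closer than the spread over animals, since PSMB9 alone ran from 116.1 to 245.9 CPM and TAP2 from 125.1 to 423.9 CPM. The 2 aminopeptidases had the lowest levels per kilobase.

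**Figure D1:**
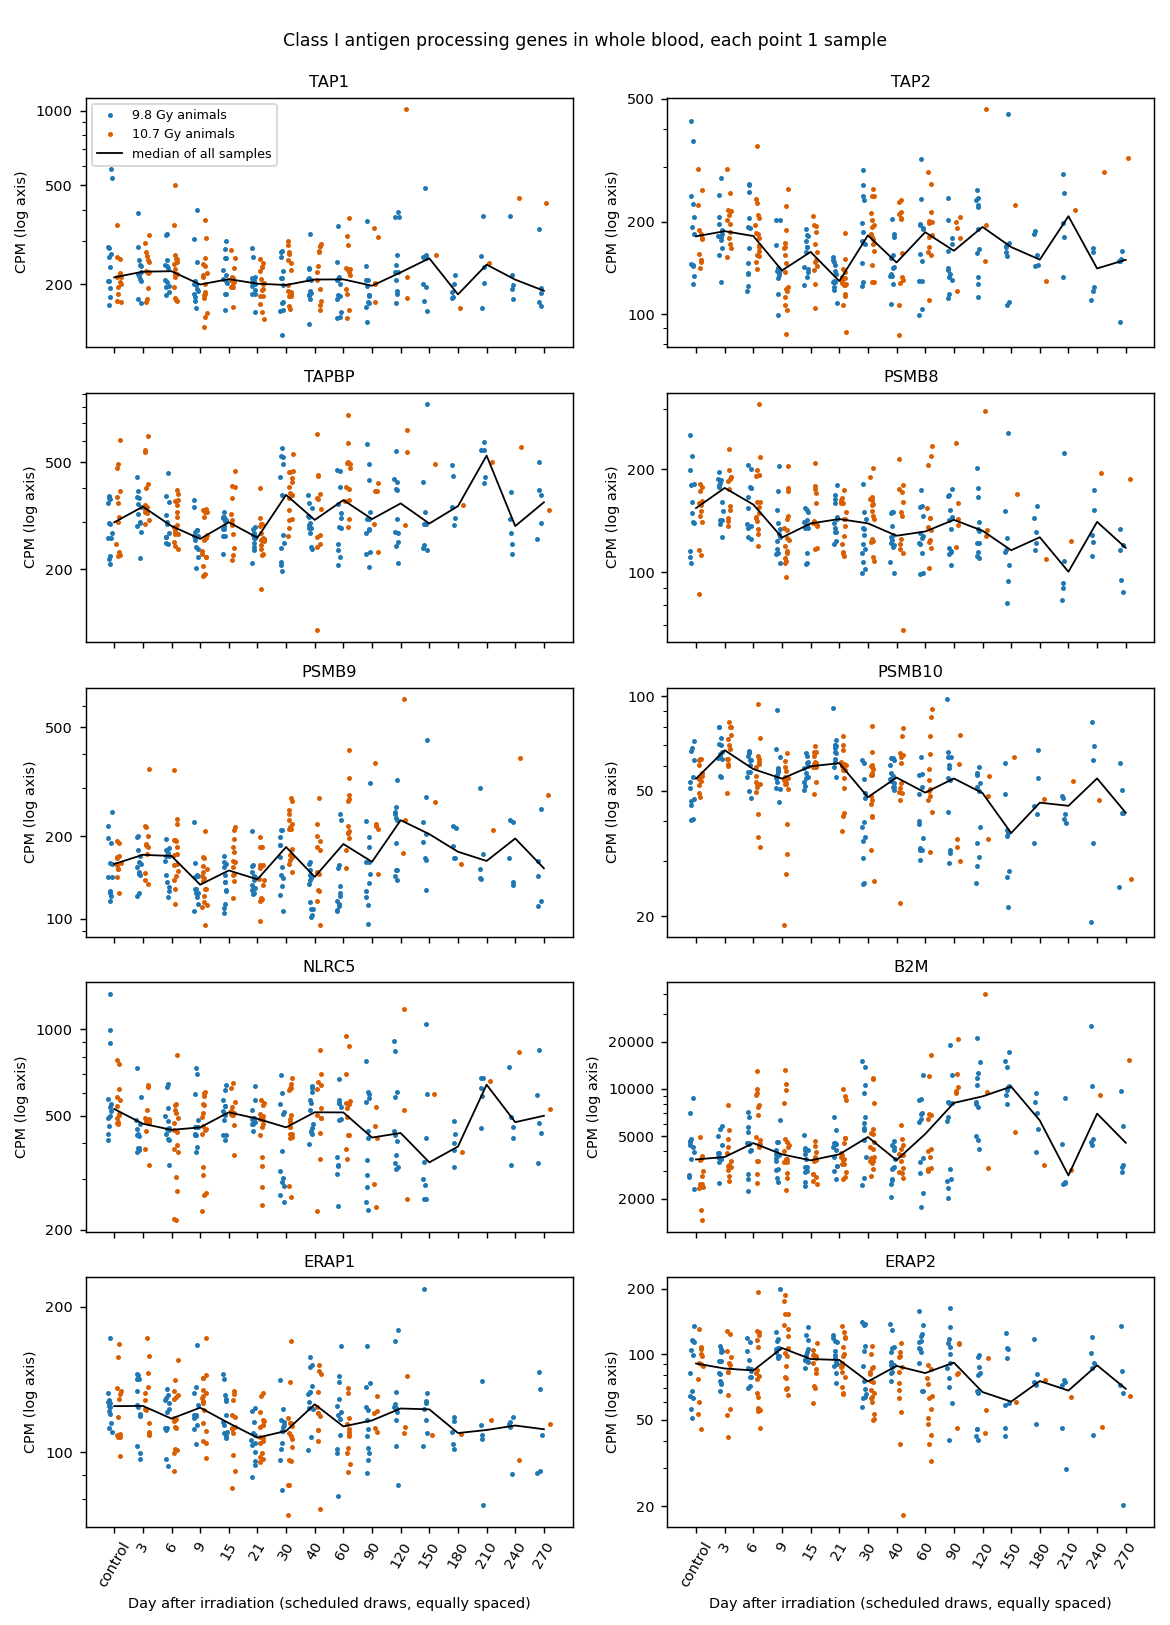
Level of each of the 10 genes in CPM on a log axis at the control and at each scheduled day, with 1 point per sample, LD animals in blue, HD animals in orange, and a black line through the median of all samples of a day. The median of B2M was 3559 CPM in controls and 10350 CPM on Day 150, while the medians of ERAP1 lay between 107.3 CPM on Day 21 and 125.8 CPM on Day 40.

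The first question was whether irradiated samples differed from the animals' own controls in each window, on counts summed per animal with the animal as a block. A gene counts as called where it had an adjusted p up to 0.05 and a fold of 1.5 or more in either direction, the fold used in the study. Genes that passed by adjusted p alone were counted as well, a count added after the data were seen. At early time points edgeR called 0 of the 10 genes, beside 7.53% of all genes tested, and 6 of the 10 had an unadjusted p under 0.05, as did 55.2% of all genes. By adjusted p alone 2 of the 10 rose and 2 fell, beside 21.1% and 27.9% of all genes (49.1% together). At medium time points edgeR again called 0, beside 5.75% of all genes, with 5 at an unadjusted p under 0.05 (51.9% of all genes). DESeq2 called 1 (B2M), beside 858 of the 13751 genes. On adjusted p alone, 1 rose and 1 fell, beside 19.9% and 25.4% of all genes (45.3% together). In the late window 1 of the 10 (B2M) was called, beside 32.5% of all genes. By adjusted p alone 3 rose and 1 fell, beside 21.8% and 33.5% (55.3% together). The median log2 fold change of the 10 genes was -0.04, -0.09 and -0.07 in the early, medium and late window, and that of all genes -0.02, -0.02 and -0.13.

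B2M rose at late time points. Over 14 animals its control level ranged from 1438 to 8682 CPM (median 4052) and its late level from 4492 to 15750 CPM (median 7618). The groups overlapped, and the level was higher than the control in 13 of 14 animals. The mean went from 4101 CPM ± 1889 to 9020 CPM ± 3691 (SD over 14 animals). On the log2 scale that was a rise of 1.15 with a standard error of 0.26 (edgeR's quasi-likelihood test, adjusted p = 0.0011). Animal B2504 showed the largest difference, from 1438 to 15750 CPM, and B1504 was the animal that went down, from 8682 to 7463 CPM. The 4 controls with library number 0 had B2M at 1459 to 2493 CPM, against 2314 to 8803 CPM in the other 20. Among the 14 animals with late samples 1 (B2504) had such a control, and without it the late log2 fold change was 0.99 (adjusted p = 0.00148). With each animal left out in turn the value stayed between 0.99 and 1.25. At medium time points the log2 fold change of B2M was 0.57 (SE 0.14, adjusted p = 0.00177, 19 of 24 animals higher), a fold of 1.48 that lies just under the threshold. With the range of library numbers as a covariate and each sample counted as a replicate, so that an animal enters more than once, the medium value was 0.28 (adjusted p = 0.364) and the late value 0.86 (adjusted p = 0.00118). At early time points it was 0.31 (SE 0.15, adjusted p = 0.0882), and 0.07 without the 4 animals whose control has library number 0.

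**Figure D2:**
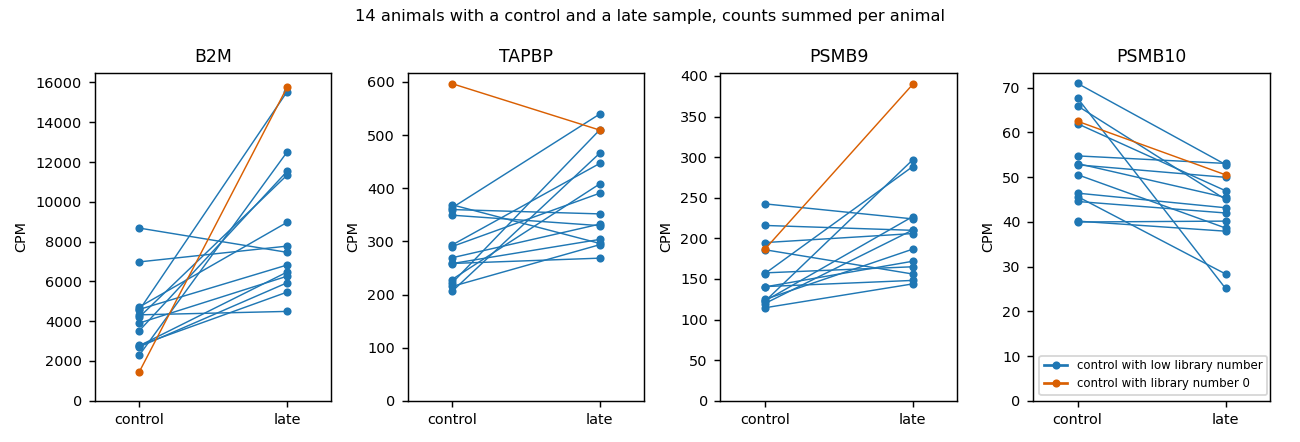
CPM of B2M, TAPBP, PSMB9 and PSMB10 in the control and in the late samples of 14 animals, with 1 line per animal, blue where the control carries a low library number and orange where it carries 0. B2M was higher in 13 of 14 animals and PSMB10 lower in 13 of 14.

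Among the peptide transport genes, TAPBP was higher in late samples than in the controls, which mostly differ in library number range, and TAP1 and TAP2 did not pass. TAPBP went from 205.7 to 597 CPM in controls (median 279.6) to 268 to 540 CPM in late samples (median 371), and it was higher in 10 of 14 animals. Its late log2 fold change was 0.37 (SE 0.13, adjusted p = 0.0227). It was 0.15 (adjusted p = 0.297) when samples were scaled to 9 pan-leukocyte genes, and 0.31 (adjusted p = 0.0525) without animal B1001. The controls with library number 0 had TAPBP at 373 to 605 CPM (median 484.3), against 208.6 to 391.5 CPM (median 283.5) in the other 20. Late samples had medians of 395.2 CPM with number 0 and 259 CPM with high numbers. B2504, the 1 animal whose control and late sample both carry number 0, went down from 596.9 to 509.4 CPM. For the other animals time and range cannot be told apart. TAP1 ranged from 163 to 577 CPM in the controls of the 14 animals (median 242) and from 185 to 381 CPM in late samples (median 235.3), a log2 fold change of -0.04 (SE 0.16, adjusted p = 0.841). TAP2 had a late log2 fold change of -0.04 as well (SE 0.15, adjusted p = 0.836). At early time points TAP2 fell slightly, from a mean of 208 CPM ± 77.7 to 172 CPM ± 27.9 (SD, n = 24 animals, log2 fold change -0.22, SE 0.08, adjusted p = 0.02), and 17 of 24 animals were lower. Without animals B1501 and B1504 that difference was -0.14 (adjusted p = 0.0608), and without the 4 animals whose control has library number 0 it was -0.21 (adjusted p = 0.0569).

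Of the immunoproteasome subunits, PSMB9 rose and PSMB10 fell at late time points, and PSMB8 did not pass. PSMB9 ranged from 114.5 to 242.5 CPM in the 14 controls (median 149) and from 144 to 390 CPM in late samples (median 208), and 11 of 14 animals were higher. Its late log2 fold change was 0.42 (SE 0.13, adjusted p = 0.00983), and 0.20 (adjusted p = 0.121) with pan-leukocyte scaling. PSMB10 ranged from 40.0 to 70.9 CPM in the controls (median 52.9) and from 25.1 to 53.1 CPM in late samples (median 44.1), and 13 of 14 animals were lower. Its log2 fold change was -0.34 (SE 0.10, adjusted p = 0.0113), to be read against the late shift of -0.13 in the median of all genes. That shift was -0.03 with TMM scaling, where PSMB10 was at -0.24 (adjusted p = 0.051), and with the range of library numbers as a covariate and each sample a replicate it was at -0.05 (adjusted p = 0.743). PSMB8 had a late log2 fold change of -0.16 (SE 0.11, adjusted p = 0.224). At early time points PSMB10 rose slightly, with a log2 fold change of 0.14 (SE 0.05, adjusted p = 0.0208), and PSMB8 and PSMB9 had values of 0.00 and -0.04 (adjusted p = 0.993 and 0.639).

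NLRC5 fell at early and medium time points by less than the fold threshold. Its control level ranged from 429 to 1387 CPM over 24 animals (median 551) and its early level from 346 to 689 CPM (median 490), and 18 of 24 animals were lower. The early log2 fold change was -0.30 (SE 0.08, adjusted p = 0.00211), and -0.22 (adjusted p = 0.00286) without B1501 and B1504. At medium time points it was -0.24 (SE 0.09, adjusted p = 0.0275), and -0.15 (adjusted p = 0.0803) without those animals, -0.21 (adjusted p = 0.051) without B1504 alone and -0.20 (adjusted p = 0.0527) without B1004. At late time points NLRC5 had a log2 fold change of -0.30 (SE 0.17, adjusted p = 0.141).

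The trimming enzymes stayed under the fold threshold in each window. ERAP1 had log2 fold changes of -0.08, -0.10 and -0.09 in the 3 windows (adjusted p = 0.0783, 0.0868 and 0.35). ERAP2 rose at early time points by a log2 fold change of 0.16 (SE 0.07, adjusted p = 0.046, 18 of 24 animals higher), which was 0.11 (adjusted p = 0.14) without B1501 and B1504 and passed in 8 of the 24 fits that left out 1 animal. Its late value was -0.34 (SE 0.15, adjusted p = 0.0601).

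**Figure D3:**
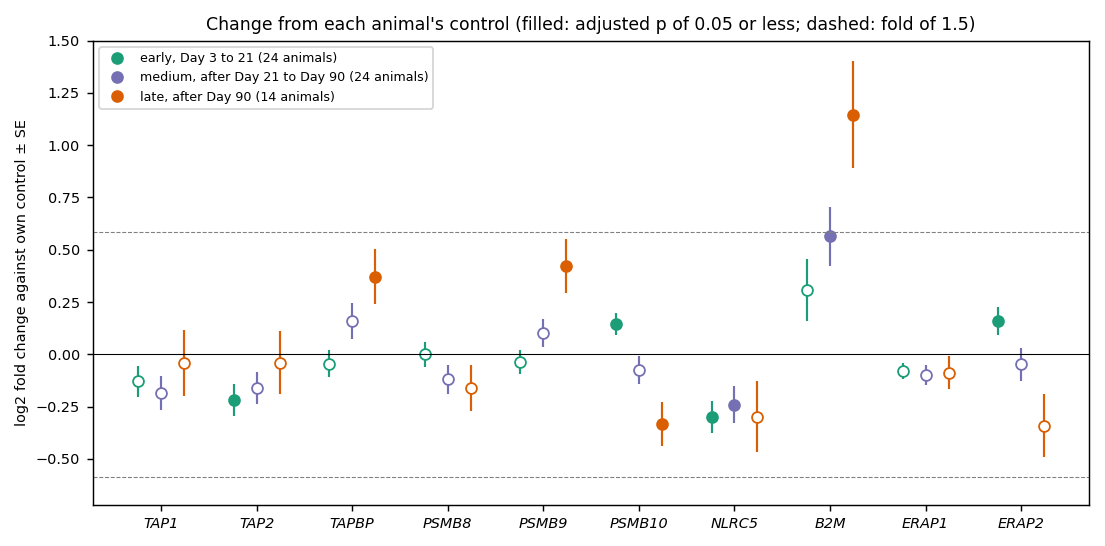
Log2 fold change against the own control with its standard error for each of the 10 genes in the early, medium and late window, filled where the adjusted p was 0.05 or less, with dashed lines at a fold of 1.5. Only the late point of B2M, at 1.15, lies beyond a dashed line.

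The windows were also compared with each other within animals, which leaves the control samples out. Library number range still differs here, since 100 early samples carried low numbers and every medium and late sample a high number or 0. In the comparisons with early samples, time and range therefore cannot be told apart for most animals. From early to late time points (16 animals) 1 of the 10 genes was called, beside 32.2% of all genes. By adjusted p alone 4 rose and 2 fell, beside 25% and 44.7% (69.7% together). The median of all genes shifted by -0.18 in this comparison. B2M had a log2 fold change of 1.05 (SE 0.18, adjusted p = 5.89e-05, 15 of 16 animals higher). TAPBP was higher in 16 of 16 animals, going from 278 CPM ± 30.2 to 404.1 CPM ± 111.3 (SD, log2 fold change 0.49, SE 0.10, adjusted p = 0.000202). PSMB9 was higher in 15 of 16 animals (0.58, SE 0.11, adjusted p = 0.000109), at a fold that rounds to 1.5 and lies just under the threshold. PSMB10 was lower in 16 of 16 animals, going from 57.6 CPM ± 5.05 to 42.8 CPM ± 8.35 (log2 fold change -0.45, SE 0.09, adjusted p = 0.000202). ERAP2 was lower in 16 of 16 animals as well, from 91.3 CPM ± 17.3 to 65.2 CPM ± 18.9 (-0.52, SE 0.10, adjusted p = 0.000109). In early samples with low numbers the medians of TAPBP, PSMB9, PSMB10, ERAP2 and B2M were 284.9, 146.2, 61.23, 93.73 and 3882 CPM. In the 7 late samples with high numbers they were 259, 137.9, 59.45, 99.24 and 4740 CPM. In the 46 late samples with number 0 they were 395.2, 212.4, 42.61, 66.94 and 8519 CPM. The part of range in these changes was not tested. Animal B2507, which has no control here, had the highest B2M, at 40350 CPM on Day 120, and without it B2M was at 0.96. TAP2 rose by 0.33 on the log2 scale (SE 0.10, adjusted p = 0.00625, 12 of 16 animals higher), and TAP1, PSMB8, NLRC5 and ERAP1 did not pass.

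From medium to late time points 1 of the 10 genes (B2M, 0.68, SE 0.20, adjusted p = 0.00737) was called, beside 22% of all genes. Without B2507 B2M was at 0.58 and 0 of the 10 were called. Without the fold threshold 5 rose and 2 fell, beside 22% and 42.4% (64.3% together). TAP1 was among them, with a log2 fold change of 0.38 (SE 0.11, adjusted p = 0.00662, 13 of 16 animals higher). From early to medium time points edgeR called 0 of the 10, beside 3.91% of all genes. By adjusted p alone 3 rose and 3 fell, beside 27% and 30.5% (57.4% together), and the same 6 had an unadjusted p under 0.05, beside 62.1% of all genes. TAPBP, PSMB9 and B2M rose and PSMB8, PSMB10 and ERAP2 fell, each by at most 0.26 on the log2 scale. The 3 comparisons share samples.

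Single days were tested too, though the days differ in library number range. Every sample of Day 30, Day 150, Day 180 and Day 210 carried library number 0, while 20 of the 24 controls carried low numbers. On Day 30 time and range cannot be told apart for most animals. From Day 120 on, every animal tested had a control with a low number and a sample with a high number or 0. On those later days time and range cannot be told apart for any animal. Among medium samples the median of B2M was 5067 CPM with number 0 and 3129 CPM with high numbers. The tests against own control on 15 scheduled days gave 4 calls among the 150 pairs of gene and day. These were B2M on Day 30, Day 120 and Day 150 and TAPBP on Day 210. Of all genes, 5.9% were called at Day 30, 31.8% at Day 120, 31.5% at Day 150 and 29.8% at Day 210. The other 11 days had 0 calls among the 10 genes by edgeR. The share of all genes called was 11.5% for Day 3 and also 11.5% for Day 6, then 7.58% (Day 9), 6.01% (Day 15), 10.4% (Day 21), 6.92% (Day 40), 4.23% (Day 60), 7.06% (Day 90), 18.7% (Day 180), 6.76% (Day 240) and 0.00727% (Day 270). By adjusted p alone 34 of the 150 pairs passed (22.7%), beside 34% of the pairs of all genes with these days. B2M went from 2719 to 7012 CPM in the controls of 9 animals (median 4217) to 5294 to 17050 CPM on Day 150 (median 10250). All 9 animals were higher (log2 fold change 1.40, SE 0.25, adjusted p = 0.000558). On Day 30 the value was 0.69 (SE 0.19, adjusted p = 0.00745, 18 of 24 animals higher), on Day 120 it was 1.22 (SE 0.29, adjusted p = 0.0027, 11 of 12 animals higher), and on Day 210 B2M was at -0.09 (SE 0.17, adjusted p = 0.697, 6 animals). B2M did not pass on the other days after Day 150 either, with 0.62 on Day 180 (SE 0.25, adjusted p = 0.0881, 4 of 6 animals higher), 1.04 on Day 240 (SE 0.38, adjusted p = 0.11, 6 of 6 higher) and 0.50 on Day 270 (SE 0.43, adjusted p = 0.428, 4 of 6 higher). TAPBP on Day 210 ranged from 411 to 585 CPM in 6 animals (median 519.9) and from 227.2 to 358.2 CPM in their controls (median 279.8). Its log2 fold change was 0.79 (SE 0.14, adjusted p = 0.00126). The 4 controls with library number 0, all from other animals, had TAPBP at 372.9 to 605.3 CPM.

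Most pairs that passed by adjusted p alone stayed under the fold threshold. On Day 3 PSMB10 was higher in 22 of 24 animals (57.4 CPM ± 8.83 in controls and 70.8 CPM ± 9.19 on Day 3, log2 fold change 0.31, SE 0.05, adjusted p = 6.25e-06). TAPBP and PSMB8 passed by adjusted p alone on that day too, at 0.20 and 0.15 (adjusted p = 0.00406 and 0.0127). On Day 9 TAPBP was at -0.29 (SE 0.11, adjusted p = 0.0302) and PSMB9 at -0.25 (SE 0.08, adjusted p = 0.0145), while ERAP2 was higher in 20 of 24 animals (0.44, SE 0.08, adjusted p = 0.000123). On Day 21 TAP2 was lower in 20 of 24 animals, at 137.2 CPM ± 20.05 against 209.6 CPM ± 78.2 in controls (-0.55, SE 0.08, adjusted p = 4.56e-06). On the same day ERAP1 was lower in 23 of 24 animals (-0.21, SE 0.05, adjusted p = 0.00098). NLRC5 was lower in 21 of 24 animals on Day 3 (-0.30, SE 0.07, adjusted p = 0.000675) and in 6 of 6 on Day 180 (-0.52, SE 0.14, adjusted p = 0.016). Every Day 180 sample carried library number 0 and the controls of those 6 animals low numbers, so time and range cannot be told apart there. Among early samples the median of NLRC5 was 479.9 CPM with low numbers and 359.7 CPM with number 0.

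The RNA counts of each inducible subunit were set over those of the constitutive subunit it replaces, a ratio that does not depend on scaling. These are ratios of RNA in whole blood, and the exchange of subunits in the proteasome itself was not measured. PSMB9 over PSMB6 fell. The mean of its log2 ratio was 2.51 ± 0.38 in controls and 2.07 ± 0.35 at early time points (SD, n = 24 animals), and 21 of 24 animals were lower. The mean change was -0.43 ± 0.43 (sign-flip permutation test, two-sided, 100000 resamples, p = 2e-05, which is the smallest p it can give, and 0.00018 after Benjamini-Hochberg adjustment over 9 tests). At medium time points the change was -0.33 ± 0.39 (20 of 24 animals lower, permutation p = 0.0004, adjusted 0.0018), and at late time points 0.05 ± 0.66 (n = 14, permutation p = 0.796). PSMB6 itself rose in the 3 windows, by 0.39, 0.43 and 0.38 on the log2 scale (adjusted p = 2.85e-05, 7.95e-05 and 0.0159), while PSMB9 was at -0.04, 0.10 and 0.42. Within 1 range of library numbers the early change of the ratio was -0.41 ± 0.44 in 24 animals, and the medium change -0.13 ± 0.33 in 4 animals. PSMB8 over PSMB5 and PSMB10 over PSMB7 had changes between -0.10 and 0.06 in the 3 windows, with adjusted permutation p from 0.248 to 0.99.

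**Figure D4:**
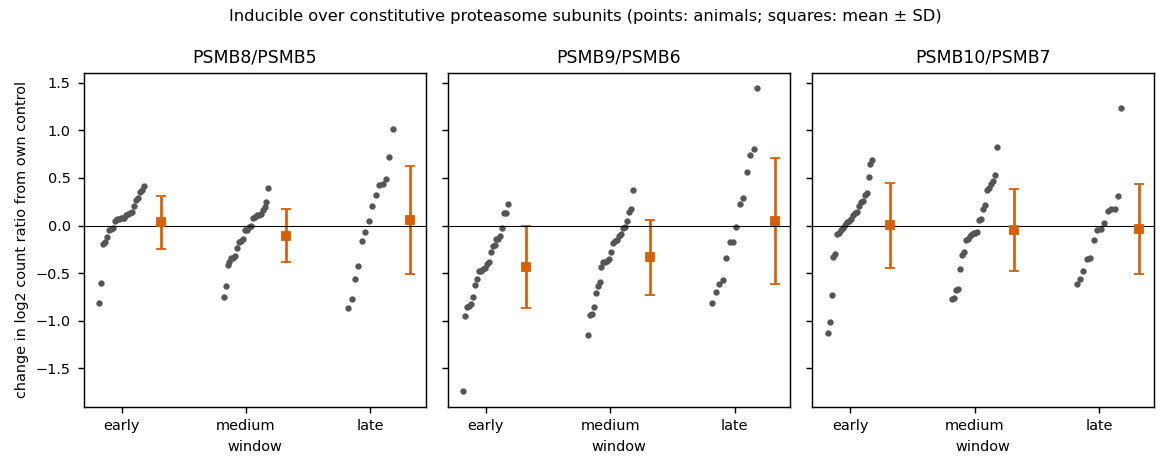
Change in the log2 ratio of PSMB8 to PSMB5, PSMB9 to PSMB6 and PSMB10 to PSMB7 from each animal's control, by window, with animals as points sorted by value and the mean ± SD as a square. For PSMB9 to PSMB6, 21 of 24 animals lie below 0 at early time points and 20 of 24 at medium time points.

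Dose was compared as the difference between HD and LD animals in their change from control. At Day 3 to 21 edgeR called 0 of the 10 genes and 0% of all genes (12 HD and 12 LD animals), with 5.53% of all genes at an unadjusted p under 0.05 and 0 calls by DESeq2. B2M had the largest difference, with a mean log2 change of 0.73 ± 0.78 in HD and -0.09 ± 0.54 in LD animals (SD), a difference of 0.82 (95% interval 0.31 to 1.32, adjusted p = 0.86). It was 0.41 without the 4 HD animals whose control carries library number 0. At Day 30 to 60 edgeR called 0 of the 10 genes, beside 3.93% of all genes, and 5 of the 10 had an unadjusted p under 0.05, beside 23.2% of all genes. The share of all genes that passed by adjusted p alone was not counted, so a count by that rule has no background here. By that rule PSMB9 passed. Its log2 change ran from -0.04 to 0.64 in HD animals (median 0.26, 11 of 12 higher than control) and from -0.53 to 0.32 in LD animals (median -0.22, 4 of 12 higher). The difference was 0.46 (SE 0.11, 95% interval 0.24 to 0.67, adjusted p = 0.00876), and 0.47 (adjusted p = 0.0235) without those 4 animals. TAP1 and PSMB8 had differences of 0.44 and 0.36 in the same direction (adjusted p = 0.0528 and 0.0666), and ERAP2 one of -0.42 (adjusted p = 0.0815). Among Day 30 to 60 samples with library number 0, the median of PSMB9 was 209 CPM in 35 HD samples and 148 CPM in 26 LD samples, and among high numbers it was 126.4 CPM in 5 HD and 122.8 CPM in 10 LD samples.

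Sex and length of follow-up were compared at Day 3 to 21, sex as a difference in change from control and follow-up as a difference in level without the controls. Between 12 females and 12 males the differences in change from control lay between -0.20 and 0.07 on the log2 scale, each with adjusted p = 1. For B2M the 95% interval was -0.79 to 0.39, so differences within that interval cannot be told from 0 here. Among HD animals, the 4 that were drawn after Day 90 were compared with the other 12. Of the 4, B2506 and B2507 lack samples of Day 3 and Day 15, as do B2006 and B2008 of the other 12, so the days summed differ. All 4 are females and 8 of the other 12 are males, so sex was a term of the fit. The differences in level lay between -0.32 and 0.19 (adjusted p = 1 for all 10 genes). In both comparisons edgeR called 0% of all genes, with 0.894% (sex) and 2.06% (follow-up) at an unadjusted p under 0.05, and DESeq2 called 0 and 1.

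NLRC5 was set against the other genes across animals, in 18 relations. In the 24 controls it went with TAP1 (Pearson r = 0.85, adjusted permutation p = 0.00012, Spearman rho = 0.69, adjusted p = 0.00117), TAP2 (r = 0.89, adjusted permutation p = 0.00012, rho = 0.82, adjusted p = 0.00018), TAPBP (r = 0.54, adjusted permutation p = 0.0151, rho = 0.72, adjusted p = 0.0009), PSMB8 (r = 0.60, adjusted permutation p = 0.0053, rho = 0.51, adjusted p = 0.0327) and PSMB9 (r = 0.66, adjusted permutation p = 0.00189, rho = 0.57, adjusted p = 0.0119). Without B1501 and B1504, the animals farthest from the NLRC5 median, r was 0.67 for TAP1, 0.77 for TAP2 and 0.61 for TAPBP, and the relations with PSMB8 (0.33) and PSMB9 (0.43) no longer passed. ERAP1 passed by rank only (r = 0.44, adjusted permutation p = 0.0533, rho = 0.59, adjusted p = 0.00929), and with TMM scaling its r was 0.55 (adjusted permutation p = 0.0127). For B2M no relation with NLRC5 was detected in controls (r = 0.09, adjusted permutation p = 0.728, rho = -0.19, adjusted p = 0.474), and its r was -0.41 (adjusted permutation p = 0.164) without those animals. In the counts of 28 animals summed over the early window r was 0.74 for TAP1 (adjusted permutation p = 0.00012, rho = 0.73) and 0.56 for TAP2 (adjusted permutation p = 0.0053, rho = 0.46), and without B2004 and B2005 it was 0.60 and 0.35, of which TAP1 alone still passed. Early PSMB10 (r = 0.59, rho = 0.40) and PSMB8 (r = 0.43, rho = 0.17) fell to 0.31 and 0.16 without them, so these relations rested on those animals. Within the low library numbers, r for TAP1 was 0.86 in 20 controls and 0.62 in 12 animals at early time points (adjusted permutation p = 0.00018 and 0.0753), and r for TAP2 was 0.90 and 0.15. The values of 1 sample share their scaling.

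**Figure D5:**
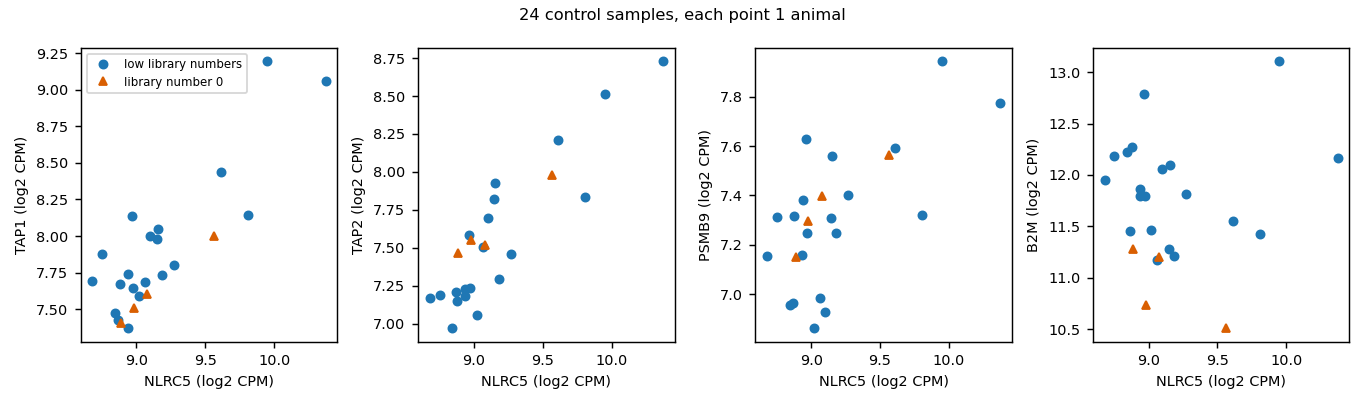
Log2 CPM of TAP1, TAP2, PSMB9 and B2M against that of NLRC5 in the 24 control samples, with circles for low library numbers and triangles for library number 0. TAP1 and TAP2 rise with NLRC5 (r = 0.85 and 0.89), and the r of B2M was 0.09.

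Over the samples of all groups, deviations from each animal's own mean showed how far the 10 genes move together, as a description across samples that share animals and library ranges. TAP1, TAP2 and PSMB8 followed the mean of the other 9 most closely (r = 0.79, 0.73 and 0.72), PSMB9, NLRC5 and TAPBP came next (0.63, 0.60 and 0.54), ERAP1 was at 0.32 and PSMB10 at 0.23. B2M (-0.11) and ERAP2 (-0.36) went their own way, and B2M ran against PSMB10 (-0.54) and NLRC5 (-0.43). Outside the 10 genes and the companion list of this pathway, the 5 genes whose pattern was most like the mean of the 10 were IFI35 (r = 0.80), LOC695158 (0.78), IRF7 (0.78), UBE2L6 (0.77) and ADAR (0.75).

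Another 41 genes of class I antigen processing and its control were listed, of which 38 were tested. At early time points edgeR called 0 of them, and by adjusted p alone 8 were higher and 9 lower (21.1% and 23.7%, beside 21.1% and 27.9% of all genes). In the medium window it called 0 as well, and by adjusted p alone 3 were higher and 13 lower (7.89% and 34.2%, beside 19.9% and 25.4%). In the late window 2 were called higher and 6 lower (5.26% and 15.8%, beside 14% and 18.5% of all genes), and by adjusted p alone 5 were higher and 14 lower (13.2% and 36.8%, beside 21.8% and 33.5%). The 2 that were higher were IRF2, an interferon regulatory factor (207.2 CPM ± 57.6 in controls and 317.1 CPM ± 64.9 late, SD, n = 14 animals, log2 fold change 0.62, SE 0.13, adjusted p = 0.000683, 13 of 14 animals higher), and MAMU-AG, a class I gene whose reads may be shared with its relatives (642.4 CPM ± 295.1 and 964.8 CPM ± 387.2, log2 fold change 0.60, SE 0.14, adjusted p = 0.00149, 13 of 14 animals higher). They were named after their values were seen. The largest called differences at late time points were in THOP1, an oligopeptidase that breaks down peptides in the cytosol (31.6 CPM ± 7.50 in controls and 14.5 CPM ± 3.22 late, SD, n = 14 animals, log2 fold change -1.11, SE 0.14, adjusted p = 1.19e-05, 14 of 14 animals lower). CIITA, the transactivator of class II genes, which B cells express, was at -0.98 (SE 0.18, adjusted p = 0.000198, 12 of 14 animals lower), beside the fall of 8 of 8 B cell markers. MAMU-F, a class I gene whose reads may be shared with its near-identical relatives, was at -0.67 (SE 0.11, adjusted p = 7.26e-05). The proteasome activator subunit PSME2 rose at early time points by 0.36 on the log2 scale (SE 0.06, adjusted p = 3.91e-05, 20 of 24 animals higher), and it was picked from the list after its values were seen. On the interferon response list of 16 genes, 12 were called higher at early time points, beside 5.79% of all genes. At late time points 6 were called lower, beside 18.5% of all genes. Of the 10 antigen processing genes 0 were called at early time points, which is near the 7.53% of all genes.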

How the data were processed

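Per the labels and the methods, the authors depleted ribosomal RNA, trimmed the reads (cutadapt 2.10), aligned them to Mmul_10 (STAR 2.7.6a) and assigned them to RefSeq genes (Subread 2.0.1). The deposited counts are whole read counts of 21070 genes, not normalized. The authors also deposited log2 values of 16730 genes, used here in an alternative only.

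Testing took genes that reached 3 counts in 80% of samples or more (13751). Counts were summed per animal and window, scaled by the upper quartile and tested with edgeR 4.0.16 (quasi-likelihood, R 4.3.3), keeping the animal as a block, since the animal number in the labels ties each sample to its own control. Adjusted p-values (Benjamini-Hochberg) run over all genes tested. Days with 6 or more animals were tested. Log2 CPM used a prior count of 2. Intervals of differences use the normal approximation, and no 2 sample columns were identical. Alternatives were TMM and pan-leukocyte scaling, DESeq2 1.42.0, limma 3.58.1 on the deposited values, other filters, no replicate block, library number ranges (as a covariate, each sample then counted as a replicate) and leaving out animals. The tests were first run on simulated counts. Named are all 10 genes, PSMB5 to PSMB7 with their ratios, the 3 called genes of the companion list with the largest change, and the 5 other genes most alike in pattern. PSME2, IRF2 and MAMU-AG were named after their values were seen. Genes, lists and tests were chosen with earlier results of these data known. Sequences are from RefSeq Mmul_10.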

Additional observations from a re-analysis of the deposited data

Results flagged for a closer look

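In 60 sets of samples of 1 gene, dose and day, the lowest and highest sample were tested by Dixon's criterion. Chance flags a single set in about 1 in 20. The 10 genes share the samples of 6 groups, so the sets are not independent and that rate does not carry over to the 60. In 10 sets (16.7%) a lowest or highest sample stood far from the others. Of these, 4 came from the Day 150 sample of animal B1506 (LD, 8 samples), the highest for TAP1 at 489.1 CPM (next 262.3), TAP2 at 445.0 CPM (next 170.1), TAPBP at 824.4 CPM (next 422.8) and ERAP1 at 218.1 CPM (next 132.8). On Day 210 animal B1502 (LD, 5 samples) was highest for PSMB8 at 222.7 CPM (next 107.7) and PSMB9 at 299.7 CPM (next 173.0). Animal B1503 was lowest for ERAP1 on Day 240 at 90.24 CPM (next 112.9) and highest for TAP1 on Day 270 at 332.5 CPM (next 192.2). TAP2 was lowest in B1003 on Day 270 at 94.77 CPM (next 149.2) and in B2506 (HD) on Day 90 at 119.1 CPM (next 177.1).

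The change of PSMB9 from control at Day 30 to 60 differed between doses by 0.4581 on the log2 scale (HD minus LD, edgeR adjusted p = 0.00876). With each animal left out in turn it lay between 0.43 and 0.50, and it passed in 24 of 24 fits.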

How the results depend on the processing

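Counting genes by adjusted p alone gave 4 of the 10 early, 2 medium and 4 late, 6 from early to medium, 6 from early to late, 7 from medium to late, 1 for dose at Day 30 to 60, and 34 pairs of gene and day. For dose the share of all genes by this rule was not counted. At medium time points B2M was called (1 gene in place of 0) with TMM, DESeq2, pan-leukocyte scaling and within 1 range of library numbers (4 animals), and leaving out each animal gave 0 to 1 calls. In that order the settings called 827, 858, 834 and 1181 of the 13751 genes. At late time points 2 genes (PSMB9 and B2M) were called with the range as a covariate and each sample a replicate, beside 4921 of all genes. A late fit within 1 range could not be made, since it held 1 animal. From early to late time points 2 genes were called with TMM and 3 with DESeq2, beside 4020 and 3929 of all genes. From medium to late 2 were called with TMM and 2 with DESeq2, beside 2643 and 2656 of all genes, and 0 without B2507. Without the replicate block, which drops the pairing by animal, 2 genes were called from early to late, beside 4113 of all genes. It also gave 7 pairs of gene and day in place of 4, as did DESeq2. For these pairs the share over all genes was not counted, so whether 7 is more than that share cannot be told. Relations with NLRC5 past the threshold fell from 9 to 4 without the 2 farthest animals, and r of NLRC5 with PSMB8 at early time points was -0.1041 within the low library numbers. For these changes the cause was not tested.

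The share of calls over all genes that were higher moved with the scaling, the filter, the tool and the samples. At late time points 43% of calls were higher, against 54.6% with TMM, 57.7% with DESeq2, 53.2% with no low count filter and 21% with pan-leukocyte scaling. From early to late the share was 37.2%, against 49.4% and 54.5% with TMM and DESeq2, and from medium to late 42.7%, against 59.9% and 66.3%. In the medium window it was 77.9%, against 55.1% with limma and 61% within 1 range of library numbers (4 animals). The median of all genes at late time points was at -0.13, -0.03 with TMM, -0.01 with DESeq2 and -0.34 with pan-leukocyte scaling. Nearly all medium and late samples lie outside the library number range of their controls, so range and time cannot be told apart for most animals.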
